A study of Homo sapiens with 8 samples.

Results

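Cyclins are the regulatory subunits that switch on cyclin-dependent kinases (CDKs), and the cell cycle advances as one cyclin replaces another. D-type cyclins act with CDK4 and CDK6 in G1 and start the phosphorylation of the retinoblastoma protein, cyclin E acts with CDK2 at the G1/S boundary, cyclin A in S and G2 phase, and cyclin B with CDK1 at entry into mitosis. Cyclins G1, G2 and I form a related atypical branch outside this sequence, and most cell cycle cyclins are short-lived proteins, so their amount depends on continued translation.

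The 10 cyclin genes described here, out of 19964 genes that had a coding transcript, were CCNA2, CCNB1, CCNB2, CCNC, CCND1, CCND3, CCNE1, CCNG1, CCNG2 and CCNI. CCNG1 and CCNI were selected on their translation values in replicate 2 of this experiment, so every arsenite against control value of these 2 genes is given as a description with no test. The other 8 cyclins were chosen by name, with earlier results of these data known, and were tested. The cells were HEK293T, a human embryonic kidney line that is known to carry adenoviral sequence and the SV40 large T antigen, a protein that binds both p53 and the retinoblastoma protein. One group was exposed to 40 µM sodium arsenite, an oxidative stressor that triggers phosphorylation of the initiation factor eIF2, for 30 min, and the control group was not. Each group was measured by ribo-seq, the sequencing of ribosome-protected mRNA fragments, and by mRNA-seq, with 2 biological replicates, which gave 8 libraries.

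On the chosen transcripts the libraries held between 1023989 and 7270582 ribo-seq reads and between 3992449 and 21715178 mRNA-seq reads, and replicate 1 was the shallower one in every group. The 10 cyclins together received 2834 (replicate 1) and 10195 (replicate 2) ribo-seq reads without arsenite, and 1057 and 3752 with it. The neurofilament genes NEFL and NEFM, which HEK293 lines are known to express, had 164 to 2600 mRNA-seq reads in each library, the kidney lineage gene PAX2 had 6 to 71, and the leukocyte gene PTPRC had 2 to 15. Ribosome occupancy below is the number of ribo-seq reads on the coding sequence (CDS), RNA level is the number of mRNA-seq reads on the whole transcript, and translation efficiency (TE) is the ratio of occupancy to RNA level. All were scaled by the trimmed mean of M-values (TMM), so each change is relative to the bulk of mRNAs, and a fall shared by all mRNAs is not part of it. Fewer cells and less RNA per cell cannot be told apart in such bulk libraries.

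The 3 lowest TE changes among the 10 belonged to the atypical cyclins, CCNG1, CCNI and CCNG2. CCNG1 and CCNI were selected on such values, so their place is no result, and CCNG2 did not pass the test given below. The annotated transcript starts of these genes are shown, because the sequence at the very 5′ end of an mRNA is known to set the translation of some mRNAs. Each line holds 30 bases of the RefSeq annotation (GRCh38.p14) in the direction of transcription, with the annotated start as base 16. Capitals mark a pyrimidine tract, defined as a C followed by at least 4 bases that are each C or T and beginning within 5 bases of the start, searched on the transcribed strand only. CCNA2 and CCNB1, which encode the S/G2 and mitotic cyclins, are shown for comparison.
CCNG1, first start, chr5:163437556-163437585, plus strand: cccgccctccaatatattcctcgttagggc
CCNG1, second start, chr5:163437580-163437609, plus strand: tagggcaggcgcggCCCCTTCggctccgag
CCNI, upstream start, chr4:77075975-77076004, minus strand: ttcccctctcttCCCCTCCCTCCCCagcct
CCNI, downstream start, chr4:77074896-77074925, minus strand: tctaaaggctagattaaataactggaattt
CCNG2, chr4:77157192-77157221, plus strand: cttgggggcgtcgaaaCTCTTaacaaaaac
CCNA2, chr4:121823869-121823898, minus strand: aacagccgccgctccggcgggctgctcgct
CCNB1, chr5:69167135-69167164, plus strand: aggctggctcttctcggcgtgctgcggcgg

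A tract of this kind began within 5 bases of the start in 21.1% of all 35116 annotated starts. In 4.07% the start base itself was a C followed by at least 4 such bases, whether or not the tract began before it. That held at 4 of the 14 cyclin starts. One of the 2 starts of CCNG1, one of the 2 starts of CCNI and the single start of CCNG2 held one within 5 bases. In CCNI the tract ran for 13 bases and the letters before it were pyrimidines as well. In CCNG1 it ran for 7 bases. In CCNG2 it was 5 bases long and began after the annotated start. One start each of CCNC and CCND3, not printed here, also held a tract, of 6 and 9 bases. The log2 TE changes of CCNC and CCND3 were -0.02 and -0.42. No start of CCNA2, CCNB1, CCNB2 or CCNE1 held a tract, so that 5 of the 14 starts of the 9 cyclins with an entry held one. Which of these starts was used in these cells was not measured, and the match is a description of the annotation.

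**Figure D1:**
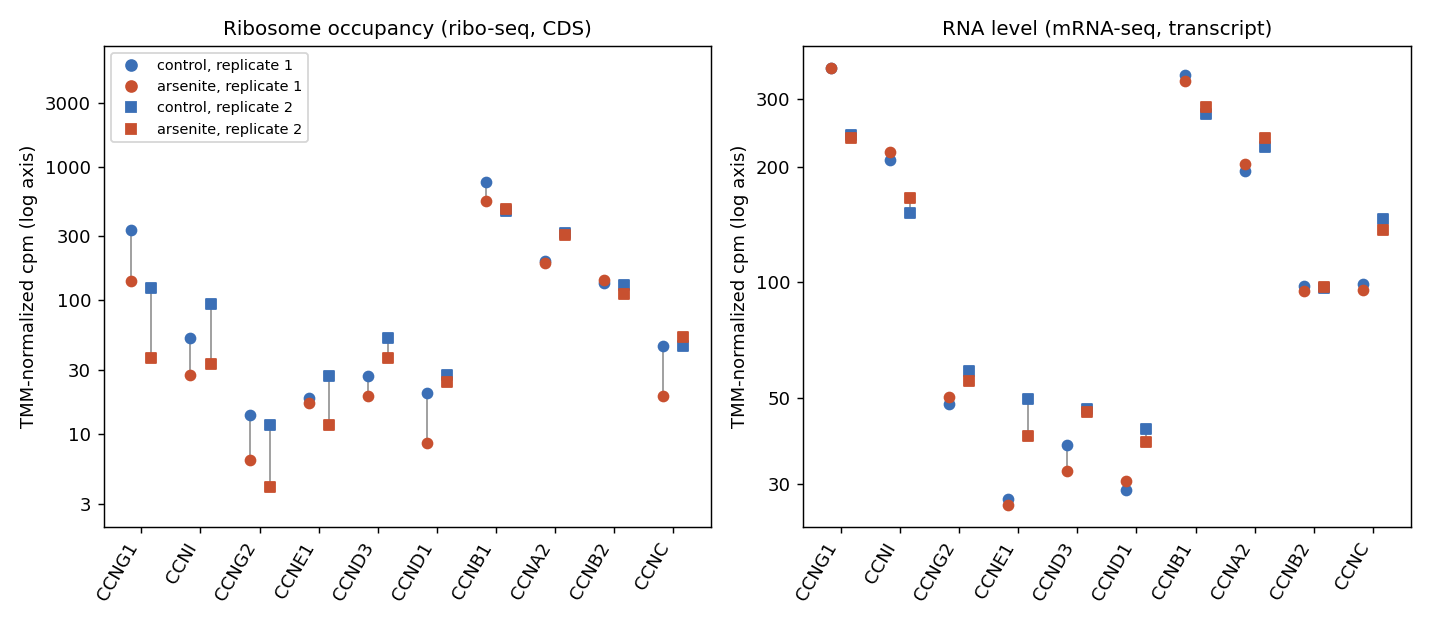
Normalized read counts (cpm, reads scaled to a common library size, log axis) of the 10 cyclins in every library, ribosome occupancy on the left and RNA level on the right, ordered by TE change. Each grey line joins control (blue) and arsenite (red) of one replicate; CCNG1, CCNI and CCNG2 have long lines in both replicates on the left and short ones on the right. Heights are not corrected for transcript length and are read within a gene only.

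CCNG1 encodes cyclin G1, a p53 target that binds the protein phosphatase PP2A. Its occupancy, in reads scaled to a common library size (cpm), was 336 cpm in control and 140 cpm in arsenite in replicate 1, and 124 and 37.1 cpm in replicate 2, from 582, 131, 951 and 121 CDS reads. Arsenite was lower within each replicate, although the replicate 1 value in arsenite lay above the replicate 2 value in control, so the groups overlapped across replicates. The mRNA of CCNG1 was at 360 and 361 cpm in replicate 1 and at 242 and 237 cpm in replicate 2. The log2 TE change was -1.49 (SE 0.180), -1.27 in replicate 1 and -1.70 in replicate 2. TE after arsenite was thus 0.356 of its control value relative to the bulk, the rank 29 of 10273 genes from the lowest.

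CCNI encodes cyclin I, which is known for a steady level through the cell cycle. Its occupancy went from 52.0 to 27.7 cpm in replicate 1 and from 93.5 to 33.1 cpm in replicate 2. RNA level was 209 and 151 cpm in control and 218 and 166 cpm in arsenite, with a log2 change of 0.11 (SE 0.0532). The log2 TE change was -1.45 (SE 0.199), -0.96 in replicate 1 and -1.63 in replicate 2. The 26 CDS reads of CCNI in arsenite in replicate 1 against 108 in replicate 2 make the former value the less precise.

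CCNG2 encodes cyclin G2, the paralog of cyclin G1, whose transcription FOXO factors are known to raise. It was the lowest of the tested cyclins. It was read far more thinly than CCNG1, with 24 and 90 CDS reads in control and 6 and 13 in arsenite. These gave 13.9 and 11.7 cpm in control and 6.39 and 3.99 cpm in arsenite. The log2 TE change was -1.39 (SE 0.323), -1.09 and -1.43 in the replicates, with an adjusted p of 0.0561 by edgeR's quasi-likelihood test. The log2 occupancy change was -1.40 (SE 0.403, adjusted p = 0.0619). Both miss the threshold of 0.05, and the 95% interval of the TE change reached from -2.11 to -0.66. Without a filter on low counts the adjusted p of TE was 0.0350, and it ranged from 0.0350 to 1.00 over the alternatives. RNA level was 48.4 and 58.7 cpm in control and 50.4 and 55.6 cpm in arsenite.

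None of the 8 tested cyclins passed the threshold for TE or for occupancy in either direction, where 2.12% of 10273 genes passed for TE and 2.77% of 10291 genes for occupancy. At an unadjusted level of 0.05 with edgeR, CCNG2 and CCNE1 passed for occupancy, beside 1812 of all 10291 genes. With DESeq2 the TE count was 0 as well, but it gave no adjusted p for CCND1, CCNE1 and CCNG2. TE change was below 0 in both replicates for 6 of the 8 tested cyclins, all but CCNB2 and CCNC, beside 31.7% of all genes. For CCNB1, CCNE1 and CCND1 the replicate nearer to the bulk was only just below it, at -0.01, -0.05 and -0.06. The median log2 TE change was -0.24 over the 8 tested cyclins, beside -0.014 over all genes and 0.07 over 15 other cyclins. Over all 10 it was -0.34, which includes the 2 genes selected on low TE and is no result. In the order of their TE changes, none of the 8 tested cyclins differed from its neighbour beyond the 95% interval of the difference. The largest step in that order lay between CCNG2 and CCNE1, a difference of 0.70 (SE 0.43).

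**Figure D2:**
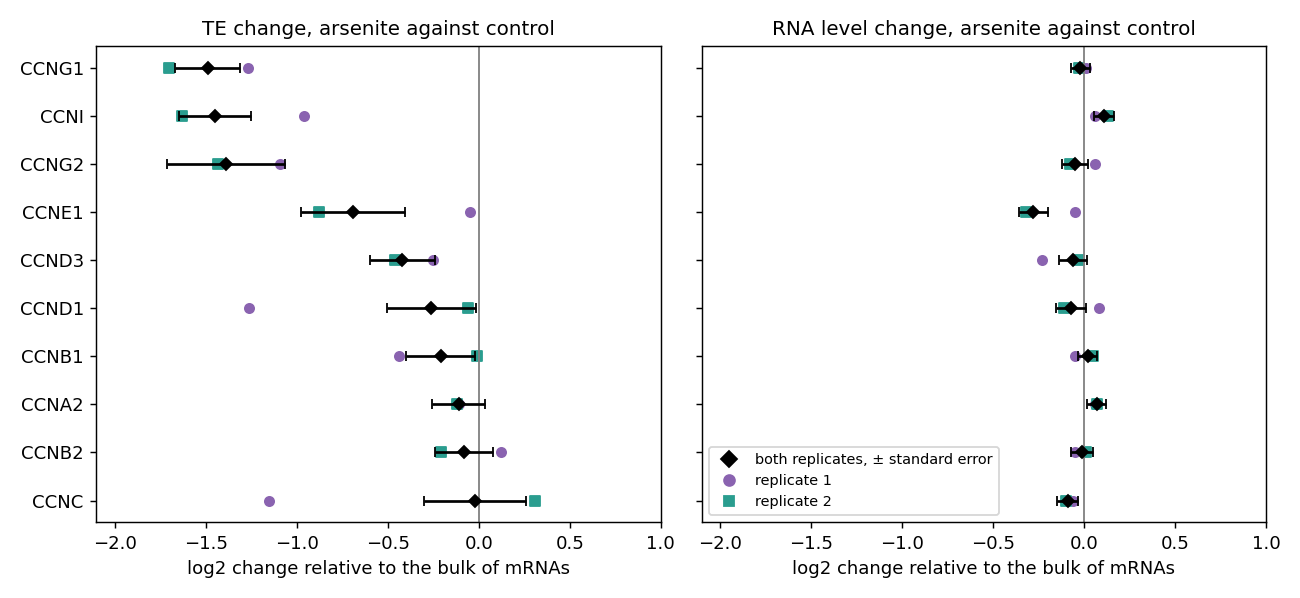
Log2 change in arsenite against control of TE (left) and RNA level (right) for the 10 cyclins; diamonds with bars are the fit over both replicates ± standard error, circles replicate 1 and squares replicate 2. CCNG1, CCNI and CCNG2 lie at -1.49, -1.45 and -1.39 in TE while all RNA level changes lie between -0.28 and 0.11.

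Among the G1 cyclins, CCNE1, the CDK2 partner at the start of S phase, had the lowest values. Its occupancy was 18.5 and 26.9 cpm in control and 17.04 and 11.6 cpm in arsenite. The lower value came from replicate 2, where CDS reads went from 207 to 38, and the log2 TE change was -0.05 in replicate 1 and -0.88 in replicate 2 (fit -0.69, SE 0.286, adjusted p = 0.207 with edgeR). CCNE1 was the one of the 8 tested cyclins whose RNA level passed the threshold, with a log2 change of -0.28 (SE 0.0795, adjusted p = 0.0143 with edgeR), where 5.75% of 12599 genes passed. Its RNA level was 27.3 and 49.8 cpm in control and 26.4 and 39.9 cpm in arsenite, so the groups overlapped across replicates and the change was -0.05 in replicate 1 and -0.32 in replicate 2. The call was lost when only mRNA-seq reads on the CDS were counted (adjusted p = 0.200) and without the replicate block (adjusted p = 1.00). DESeq2 gave no adjusted p for it.

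The D-type cyclins are the growth-factor-dependent activators of CDK4 and CDK6. CCND3 had like values in both replicates, from 27.2 to 19.2 cpm and from 52.2 to 37.1 cpm of occupancy, and its log2 TE change was -0.42 (SE 0.179, adjusted p = 0.223 with edgeR). CDS reads of CCND1 numbered 35 without and 8 with arsenite in replicate 1, and 213 and 80 in replicate 2. The within-replicate log2 TE changes of CCND1 were -1.26 and -0.06, and the fit gave -0.26 (SE 0.245, adjusted p = 0.569 with edgeR). The replicates of CCND1 thus differed by more than the fitted change. RNA level of CCND1 was 28.9 and 41.5 cpm in control and 30.5 and 38.6 cpm in arsenite.

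The TE changes of the cyclins of S phase and mitosis lay between -0.21 and -0.08 on the log2 scale. CCNA2 occupancy was 195 and 316 cpm in control and 190 and 306 cpm in arsenite, with a log2 TE change of -0.11 and a 95% interval from -0.44 to 0.21. CCNB1 occupancy was 771 and 463 cpm in control and 551 and 478 cpm in arsenite, with a log2 TE change of -0.21 and an interval from -0.64 to 0.21. CCNB2, the second B-type cyclin, stood at 134 and 129 cpm in control and 141 and 112 cpm in arsenite, with a TE change of -0.08 and an interval from -0.43 to 0.27. The RNA level changes of CCNA2, CCNB1 and CCNB2 lay between -0.01 and 0.07.

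CCNC encodes cyclin C, the partner of CDK8 in the kinase module of the Mediator complex. Its 2 replicates went in opposite directions. Occupancy was 45.1 cpm in control and 19.2 cpm in arsenite in replicate 1, from 78 and 18 reads, and 45.5 and 52.7 cpm in replicate 2, from 350 and 172 reads. The log2 TE changes were -1.15 and 0.31, and the fit, which weighs the deeper replicate more, gave -0.02 (SE 0.280, adjusted p = 0.978 with edgeR).

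A Z-score sets each log2 TE change against the mean and SD of its bin of 300 genes, with the genes of one replicate sorted by their lowest normalized read count. In replicate 2, on which CCNG1 and CCNI were selected, it was -4.33 for CCNG1 and -4.27 for CCNI, the fifth and sixth lowest of 11598 genes. CCNG2 followed at -2.20, CCNE1 at -1.95 and CCND3 at -1.14, and the other 5 cyclins lay between -0.64 and 0.87. Replicate 1 is no independent check, since it comes from the same contrast and the genes were chosen with earlier results of these data known. There CCNG1 stood at -3.02, rank 26 of 9912 genes, and CCNI at -1.62, rank 533. CCNC (-1.92) and CCND1 (-1.75) were lower than CCNI there, and both lay close to 0 or above it in replicate 2.

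TE in control can be compared between genes, because the reads of both assays were counted on the same CDS and its length cancels. On the log2 scale relative to the bulk, it was 1.02 for CCND1, 0.80 for CCNA2, 0.74 for CCNB1, 0.56 for CCND3, 0.26 for CCNG1, 0.24 for CCNB2, -0.62 for CCNE1, -0.70 for CCNC, -1.21 for CCNI and -1.47 for CCNG2. CCNG2 (SE 0.331, adjusted p = 0.00872) was below the bulk by edgeR's quasi-likelihood test. The control libraries of replicate 2 entered the selection of CCNG1 and CCNI. TE in control of these genes (SE 0.295 and 0.329) is therefore given with no test. No other of the 8 tested cyclins passed, where 22.0% of 10611 genes passed in either direction. CCNI was at -1.71 in replicate 1 and -0.74 in replicate 2, and CCNG2 at -1.51 and -1.41. Without the replicate block CCNG2 did not pass (adjusted p = 0.0740 with edgeR). Without a filter on low counts CCNA2, CCNB1 and CCND1 passed too, as higher than the bulk. No cyclin differed from its neighbour in this order beyond the 95% interval of the difference. The first and the last, which are the extremes of this order by choice, were 2.49 (SE 0.49) apart, and that difference was not tested. The 3 cyclins with the lowest TE change thus had unlike TE in control: CCNG1 lay close to the bulk, and CCNI and CCNG2 were the lowest of the 10.

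**Figure D3:**
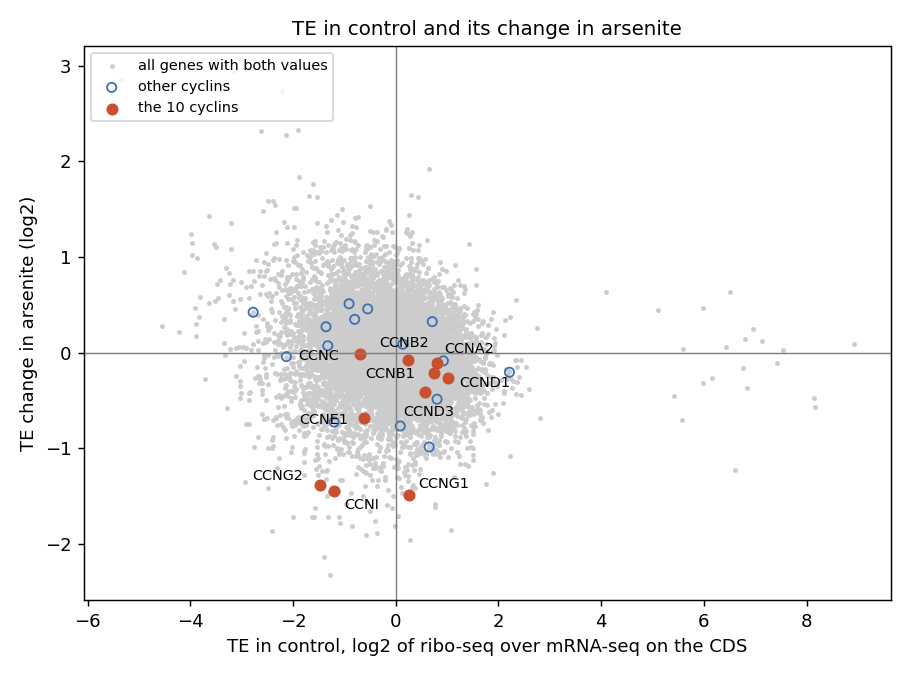
TE in control (horizontal, log2 of ribo-seq over mRNA-seq on the CDS, relative to the bulk) against the TE change in arsenite (vertical, log2), one point per gene; grey are all genes with both values, open circles other cyclins, filled red points the 10 cyclins. CCNG1 sits at 0.26 and -1.49, CCNI at -1.21 and -1.45 and CCNG2 at -1.47 and -1.39.

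Ribo-seq reads on the 5′ leader, the stretch before the start codon where short upstream open reading frames can be translated, are given next for CCNG1 and CCNI as a description, since the share depends on the CDS reads that entered the selection of both genes. In replicate 2 the leader of CCNG1 went from 33 to 30 reads with arsenite, while its CDS went from 951 to 121. The leader share of its ribo-seq reads was 3.35% (95% Wilson interval 2.40 to 4.67) in control and 19.1% (13.7 to 25.97) in arsenite. In replicate 1 the leader held 2 reads in each, a share of 0.341% (0.0937 to 1.24) and 1.504% (0.413 to 5.32), so the intervals overlapped there. Over all chosen transcripts the leader share went from 0.399% to 0.496% in replicate 1 and from 0.8004% to 1.53% in replicate 2. The second CCNG1 transcript shares the CDS and had 10 leader reads without and 13 with arsenite in replicate 2, so most of the leader reads lay in sequence of the first transcript alone.

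In CCNI the leader lost reads together with the CDS. Its reads went from 12 to 0 in replicate 1 and from 126 to 18 in replicate 2, where its share of the reads was 14.9% (12.6 to 17.4) in control and 14.2% (9.16 to 21.3) in arsenite. For CCNI in arsenite in replicate 1, 0 of 26 reads allows a share of up to 12.9% by the Wilson interval. These intervals cover counting error only. CCNG2 had no leader read in control and 3 of 17 reads in arsenite in replicate 2, too few to be tested.

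Leader and CDS counts were then scaled apart, each to the bulk of its own region, over the 650 genes with enough reads on both. The leader shift, the log2 change of leader reads minus that of CDS reads, is thus relative to the bulk of those genes. It was 1.73 (SE 0.481) for CCNG1 and -1.35 (SE 0.561) for CCNI, the latter -3.28 and -0.92 in the replicates. CCNB1, CCNA2 and CCNC also had enough leader reads for the test, and none of them passed it, where 0.154% of 650 genes passed. CCNB1 had 0 and 23 leader reads in control and 1 and 37 in arsenite, with a leader shift of 1.32 (SE 0.539, adjusted p = 0.404 with edgeR). The leader shift was -0.21 for CCNA2 and -0.43 for CCNC (both adjusted p = 0.885 with edgeR). Unscaled, the leader share in replicate 2 was higher in arsenite for both, 2.60% and 4.12% for CCNA2 and 6.92% and 11.2% for CCNC. On the other CCNC transcript it was lower in arsenite, with 53 of 313 reads in control and 23 of 158 in arsenite in replicate 2. The leader reads of CCNC went from 19 to 1 in replicate 1 and from 26 to 22 in replicate 2.

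**Figure D4:**
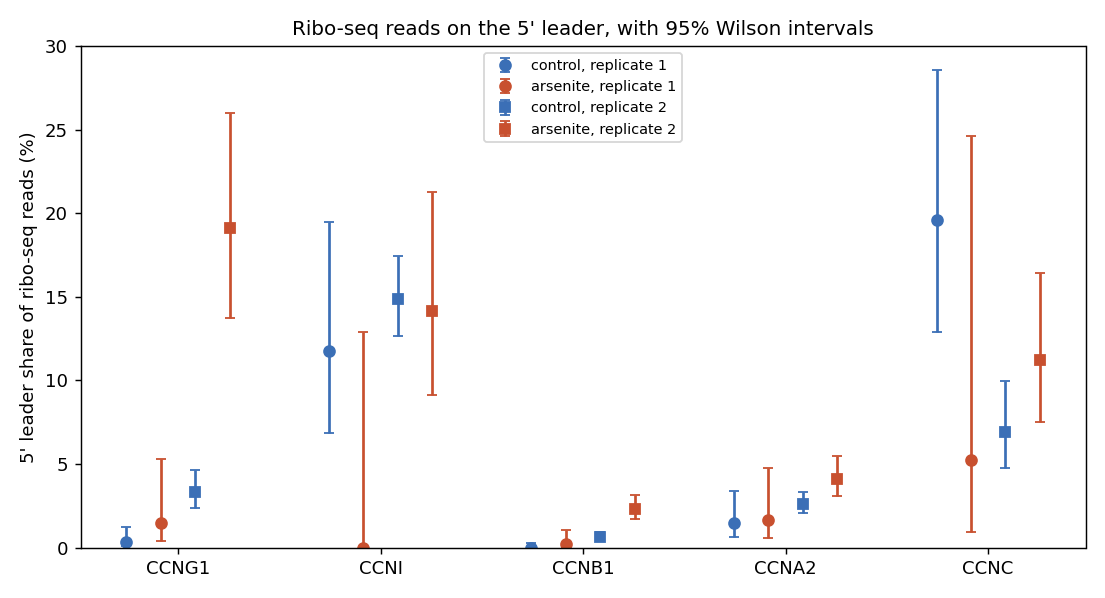
Share of ribo-seq reads on the 5′ leader, in percent of the reads of the transcript, for the 5 cyclins with enough leader reads, in each library; bars are 95% Wilson intervals for counting error. The CCNG1 share is 3.35% in control and 19.1% in arsenite in replicate 2, while the CCNI shares of 14.9% and 14.2% overlap.

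The genes whose changes were closest to those of CCNG1 and CCNI were found by the Euclidean distance over 4 log2 changes, RNA level and occupancy in each replicate, among 5383 genes with at least 100 reads in both assays on average. Nearest to CCNG1 were ADRBK1 (distance 0.0843), which encodes a G protein-coupled receptor kinase, BTBD2 (0.164) and RPL12 (0.270), a protein of the large ribosomal subunit. Their log2 TE changes were -1.63, -1.56 and -1.29. Nearest to CCNI were PCBP2 (0.0851) and PABPC1 (0.334), which encode a poly(C)-binding and a poly(A)-binding protein, and between them TCF12 (0.281), a basic helix-loop-helix transcription factor. Their log2 TE changes were -1.33, -1.58 and -1.28. CCNI was the 6th nearest gene to CCNG1 and CCNG1 the 8th nearest to CCNI, at a distance of 0.480. Both genes were selected on low TE, which is computed from these same changes. Their closeness and the low TE of their neighbours are thus no result.

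In the rest of the cyclin and CDK pathway, 6 lists of 94 genes were counted, of which 85 could be tested for TE. One passed, against 2.12% of all genes. It was CDK16, a kinase of the PCTAIRE family that binds cyclin Y, with a log2 TE change of 1.36 (SE 0.173, adjusted p = 0.0103 with edgeR) and of 1.31 and 1.36 in the replicates. The log2 occupancy change of CDK16 was 1.21, and its TE in control was -3.21 on the log2 scale, below the bulk (adjusted p = 5.64e-05 with edgeR). Of the other cyclins, 15 of 20 were tested for TE and none passed, with values from -0.99 to 0.51 and a median of 0.07. The median TE changes of the further lists were -0.16 for 18 CDKs, 0.12 for 7 CDK inhibitors, 0.05 for 8 activators and inhibitory kinases of CDKs, 0.09 for 24 genes of the ubiquitin ligases that act on cyclins, with their conjugating enzymes and regulators, and -0.24 for 13 genes of the RB and E2F families.

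For occupancy, CDK16 rose and ANAPC13, a subunit of the anaphase-promoting complex, fell by 0.98 on the log2 scale (SE 0.237, adjusted p = 0.0288 with edgeR). These were 2 of 85 tested, beside 2.77% of all genes. For RNA level, 4 of 89 tested genes passed, beside 5.75% of all genes, with changes no larger than 0.23 on the log2 scale. CKS2, a small CDK-binding protein, stood at -0.23, UBE2C, the ubiquitin-conjugating enzyme of the anaphase-promoting complex, at -0.18, CCNL2, a cyclin linked to splicing, at -0.17, and CDC20, an activator of that complex, at 0.16. All 4 calls were lost with DESeq2, with mRNA-seq reads on the CDS only and without the replicate block. The CDC20 call was lost also with upper-quartile scaling (adjusted p = 0.0623 with edgeR) and with no filter (adjusted p = 0.0638 with edgeR). The CCNL2 call was lost also with no filter (adjusted p = 0.0545 with edgeR) and on the transcripts with most mRNA-seq reads (adjusted p = 0.0517 with edgeR). The occupancy calls of ANAPC13 (adjusted p = 0.234 with DESeq2) and CDK16 (adjusted p = 0.0979 with DESeq2) were lost with DESeq2 and without the block. That of ANAPC13 was lost also at a mean of at least 100 counts (adjusted p = 0.0691 with edgeR) and when ribo-seq reads of the entire transcript were counted (adjusted p = 0.0521 with edgeR). The TE call of CDK16 was lost without the block and in none of the other alternatives that were tested.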

How the data were processed

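The authors deposited unnormalized read counts per transcript: adapters were trimmed with Cutadapt, rRNA and spike-in reads set aside, and the remainder aligned to RefSeq transcripts with Bowtie 1.0.0; reads mapping to several genes were discarded. Region columns (leader, CDS, 3′ UTR) were likewise deposited counts, and their sum was checked against the total. Per gene, the coding transcript with most control CDS ribo-seq reads was taken; CCNC, CCND3 and CCNG1 had more than 1. Changes were fitted with edgeR 4.0.16 (TMM, quasi-likelihood, replicate as block, Benjamini-Hochberg over all genes, mean count of at least 10) in R 4.3.3 and tested on simulated data. TE change was the interaction of assay and treatment, and 95% intervals used the t distribution behind each fit's p. Transcript lengths and spike-in factors were not used.

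The methods give each replicate its own adapters, sequencing and scaling, so same-numbered libraries were paired; their deviations from the group means correlated at 0.726 over 12599 genes for mRNA-seq and 0.703 over 10291 genes for ribo-seq. Within-replicate log2 changes used a prior count of 0.5. The members and lists were chosen with earlier results of these data known. Named were all 10 members, the 3 nearest genes of CCNG1 and of CCNI, and list genes past the threshold for a change, up to 4 per list and measure. For TE in control the list genes named are examples. Alternatives were upper-quartile scaling, DESeq2 1.42.0, other filters, regions and transcripts, no block, and leaving out a replicate.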

Additional observations from a re-analysis of the deposited data

How the results depend on the processing

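With 2 replicates the calls rested on the block. Without the replicate block 0 genes passed for RNA level, occupancy, TE and the leader shift, with 28, 150, 147 and 5 at an unadjusted p under 0.05. For TE in control 377 genes passed. None of the tested cyclins passed in any of these. Calls over all genes for RNA level numbered 725 (473 higher), 86 (80 higher) with DESeq2 and 240 (201 higher) with mRNA-seq reads on the CDS only. Occupancy calls numbered 285, 473 with upper-quartile scaling, 54 with DESeq2, 539 with no filter and 53 at a mean of at least 100. TE calls numbered 218, 114 with DESeq2, 456 with no filter, 25 at a mean of at least 100 and 81 with CDS reads only. TE in control had 2335 calls and 1057 at a mean of at least 100. DESeq2 left 9038 genes without an adjusted p for RNA level, 5188 for occupancy and 4581 for TE. The leader shift had 1 call, 3 with DESeq2, 10 with at least 5 leader reads and 10 on the transcripts with most mRNA-seq reads.

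The count of cyclins called for RNA level, 1 (CCNE1), went to 0 with DESeq2, which gave CCNE1 no adjusted p, with CDS reads only and with no replicate block. For occupancy, 0 became 1 (CCNG2) with upper-quartile scaling (adjusted p = 0.0345) and with no filter (adjusted p = 0.0190), and for TE 0 became 1 (CCNG2) with no filter. For TE in control, CCNG2 alone of the tested cyclins passed, and CCNA2, CCNB1 and CCND1 passed too with no filter. No tested cyclin passed with no replicate block or at a mean of at least 100, which CCNG2 did not reach. The RNA level change of CCNB1 turned to -0.00052 without the block. TE changes ranged over the alternatives from -1.52 to -1.34 for CCNG1, from -1.52 to -1.35 for CCNI and from -1.41 to -1.14 for CCNG2, and the Z-scores of replicate 2 from -4.38 to -4.17 for CCNG1 and from -4.28 to -4.10 for CCNI. With replicate 1 alone the leader shift of CCNI was -3.28, and the TE change of CCND1 was -1.26, of CCNC -1.15 and of CCNI -0.96. The cause of these shifts was not tested. Depth limits CCNG2, CCND1 and CCNE1 most, with 6 to 16 CDS reads in the shallower arsenite library.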

Other observations

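TE in control ranged from -3.21 to 2.21 on the log2 scale over the rest of the pathway, and from -1.47 to 1.02 over the 10 cyclins. Of 86 tested genes in the 6 lists, 5 lay above and 14 below the bulk of mRNAs, against 22.0% of all genes that passed in either direction. The highest of the other cyclins was CCND2, the third D-type cyclin, at 2.21 on the log2 scale (SE 0.352), and the lowest were CCNL2 at -2.78 (SE 0.328) and CCNY, the membrane-bound partner of CDK16, at -2.13 (SE 0.354). CDK6, a partner of the D-type cyclins, lay at 1.35 (SE 0.361), CDKN1C, the CDK inhibitor p57, at 1.80 (SE 0.555) and CDC20 at 1.14 (SE 0.301). All 6 values had an adjusted p under 0.05 with edgeR's quasi-likelihood test. Without the replicate block, those of CCND2, CDK6, CDKN1C and CDC20 did not. The value of CDKN1C rested on 2 and 24 mRNA-seq reads on the CDS in control. These 6 genes are examples. SKP1 also lay above the bulk, at 1.43, and further genes below it, such as E2F1 at -2.69 and CDK10 at -1.89.

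On the 3′ UTR the 10 cyclins together held 3 of 2834 control ribo-seq reads and 0 of 1057 arsenite reads in replicate 1, and 8 of 10195 and 15 of 3752 in replicate 2. Over all chosen transcripts the share of 3′ UTR reads in ribo-seq went from 0.102% to 0.201% in replicate 1 and from 0.204% to 0.755% in replicate 2, and the cyclins' share of 0.0785% and 0.400% in replicate 2 lay below it. In replicate 2, 6 of the 15 belonged to CCNG1, which had 1 in control. In replicate 1 CCNG1 went the other way, with 2 in control and 0 in arsenite.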
